A study of Mus musculus with 2 samples.

Results

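The imprinted Kcnq1ot1 cluster lies on distal mouse chromosome 7 and was taken here as 9 named genes, the noncoding RNA gene Kcnq1ot1 and 8 protein-coding genes around it. The members were chosen by name, matched through the gene identifiers of the deposited tables to GENCODE symbols, and all 9 of 9 were found among the 43346 genes of the tables. The data are total RNA-seq of ES-E14, a male embryonic stem cell line of mouse strain 129/Ola, in 1 group of 2 libraries with no treatment given in the labels. The labels number the libraries as biological replicates 1 and 2 but name 1 biosample for both, and their spread may therefore be technical. There is no second condition, no library of placenta and no allele-specific count, so levels are sums over both parental copies. The line is established in culture and has no age. Paired values are given as replicate 1, then replicate 2, and levels as TPM, a gene's share of the transcripts of its library after correction for length. All 8 embryonic stem cell markers listed passed 1 TPM in each library, from Dppa5a (613.37 and 597.01 TPM), Tdgf1 (318.39 and 197.95 TPM) and Pou5f1 (162.43 and 201.07 TPM) down to Klf4 (19.59 and 13.82 TPM).

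Imprinted genes are expressed from the copy inherited from 1 parent. In this domain the promoter of Kcnq1ot1 lies inside an intron of Kcnq1, in a control region that is methylated on the maternal copy, and the RNA is made from the paternal copy, where it silences neighbouring genes in cis. Genes close to it (Kcnq1, Cdkn1c, Slc22a18 and Phlda2) are known as maternally expressed in embryo and placenta, while the outer genes (Ascl2, Tspan32, Cd81 and Tssc4) are known to be imprinted mainly in placenta.

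Kcnq1ot1 (ENSMUSG00000101609; chromosome 7, 143203458 to 143296549, minus strand, GRCm38, the same assembly as mm10) is a single-exon model. Its start lies in intron 11 of the 16-exon transcript Kcnq1-201, which runs on the opposite strand, and the model crosses exon 11 into intron 10, covering 121 exonic bases of Kcnq1. RefSeq gives promoters, 250 bases before to 50 after the start, for 7 of the 9 genes on GRCm38.p6. The control region's promoter is shown first, followed by the upstream 250 bases of Cd81 and Phlda2, the members that stood furthest apart between the libraries. Capitals mark CCAAT on either strand (CCAAT or ATTGG), the motif of the factor NF-Y.

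Kcnq1ot1, chr7:143296498-143296797, minus strand: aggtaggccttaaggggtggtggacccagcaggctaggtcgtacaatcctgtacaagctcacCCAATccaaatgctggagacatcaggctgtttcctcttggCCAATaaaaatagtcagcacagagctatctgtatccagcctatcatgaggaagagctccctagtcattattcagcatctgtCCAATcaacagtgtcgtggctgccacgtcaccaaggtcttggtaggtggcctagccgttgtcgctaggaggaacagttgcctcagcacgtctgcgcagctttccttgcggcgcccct
Cd81, chr7:143052500-143052749, plus strand: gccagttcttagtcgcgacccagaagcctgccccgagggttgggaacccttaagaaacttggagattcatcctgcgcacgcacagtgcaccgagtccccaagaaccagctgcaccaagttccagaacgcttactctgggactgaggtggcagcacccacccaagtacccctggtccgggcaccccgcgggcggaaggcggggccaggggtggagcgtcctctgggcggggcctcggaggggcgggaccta
Phlda2, chr7:143502525-143502774, minus strand: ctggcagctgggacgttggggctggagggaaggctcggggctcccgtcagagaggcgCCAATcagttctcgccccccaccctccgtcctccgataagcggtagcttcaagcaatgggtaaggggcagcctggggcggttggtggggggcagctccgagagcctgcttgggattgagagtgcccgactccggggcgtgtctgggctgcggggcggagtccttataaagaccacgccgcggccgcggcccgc

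The window of Kcnq1ot1 held 3 CCAAT motifs, all on its sense strand, which began at -188, -148 and -67 from the start. That of Ascl2 also held 3, those of Phlda2 and Tssc4 1 each, and those of Cd81, Tspan32 and Slc22a18 none. Of 32851 RefSeq promoter windows of 300 bases, 37.4% held at least 1 CCAAT and 3.37% held 3 or more. The hexamer TGCCGC (either strand), which the imprint-protecting protein ZFP57 recognises when methylated, was in none of the 7 windows and in 11.6% of all. CpG dinucleotides numbered 9 in the Kcnq1ot1 window, against 23 in those of Ascl2, Cd81 and Tssc4, 26 in that of Phlda2, and 2 in those of Tspan32 and Slc22a18. The median over all windows was 7. These letters describe the windows alone.

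Of the 9 genes, 6 were at 1 TPM or more in both libraries. The genes at that level were Kcnq1ot1 and the coding genes Cd81, Phlda2, Tssc4, Cdkn1c and Ascl2. The same limit was passed by 24.8% of all genes and by 46.3% of protein-coding genes. Tspan32, Slc22a18 and Kcnq1 stayed under 1 TPM in both libraries. When TPM was rescaled so that protein-coding genes alone made up the total, 8 of the 9 passed, all but Kcnq1. Rescaling raised the values, that of Kcnq1ot1 to 6.91 and 10.7. The shares of all genes that pass on that scale are not given here.

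**Figure D1:**
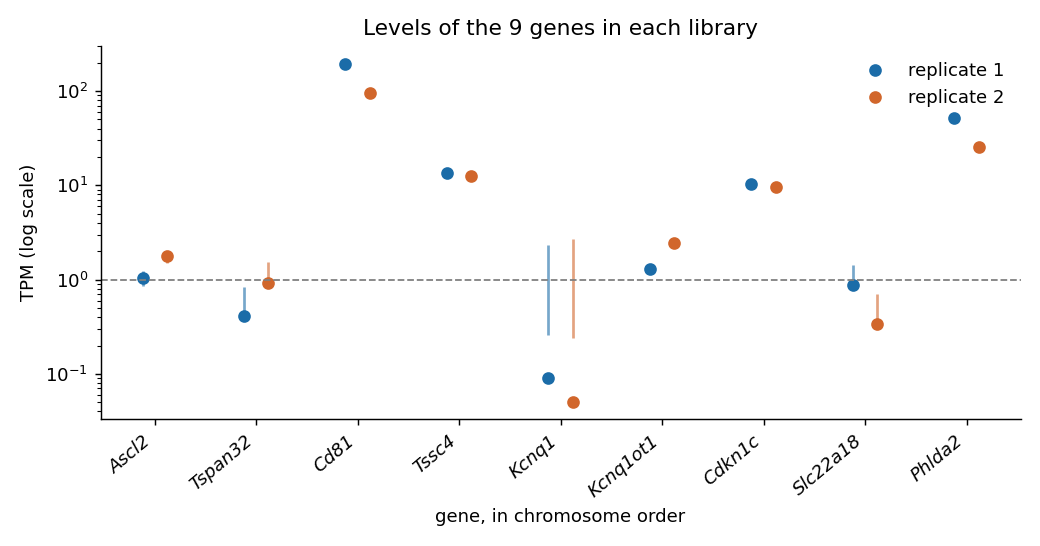
TPM on a log scale for each gene in chromosome order; points are the 2 libraries, vertical lines the interval that the authors deposited with each value, and the dashed line 1 TPM. Cd81 and Phlda2 are highest, and Kcnq1 lies below its own interval because short transcript models without reads raise the posterior values.

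Kcnq1ot1 stood at 1.29 and 2.45 TPM, a mean of 1.87 ± 0.820 TPM (SD, n = 2). Replicate 2 was the higher library. It was higher than 55.3% and 60.8% of protein-coding genes. By reads the same gene ranked far higher, with 8465 and 15295 expected counts, the estimated number of reads of a gene. The model in the tables is 84395 bases long, the longest of all genes, against a median of 2284 bases for expressed protein-coding genes. Among 5694 long noncoding RNA genes it ranked 215 and 135 by TPM but 10 and 7 by expected counts.

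Within the cluster the contrast between the scales was as wide. Kcnq1ot1 held 0.469% and 1.66% of the 9 genes' summed TPM. It held 27.4% (95% Wilson interval 26.9 to 27.9%) and 54.1% (53.5 to 54.7%) of their 30885 and 28276 expected counts. In replicate 2 it was the first of the 9 by reads and in replicate 1 the second, after Cd81. In TPM it was the fifth in both. Per kilobase of effective length it had 100 and 182 expected counts, against 15169 and 6999 for Cd81. The intervals cover counting error only.

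**Figure D2:**
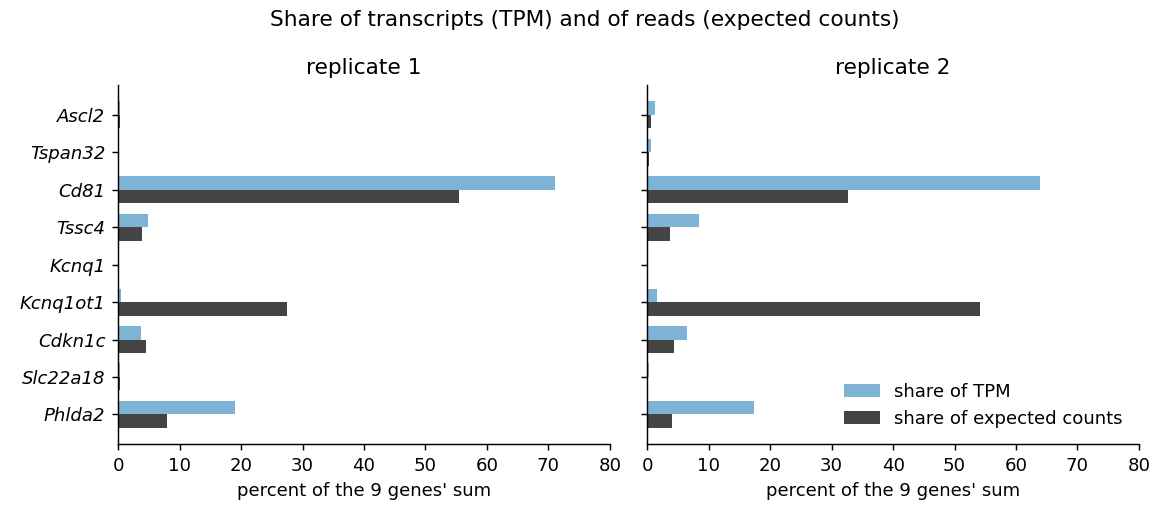
Share of the 9 genes' summed TPM (light bars) and of their summed expected counts (dark bars) by gene, 1 panel per library, in percent. Kcnq1ot1 has 27.4% and 54.1% of the counts with 0.469% and 1.66% of the TPM, while Cd81 leads in TPM with 71.0% and 63.9%.

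The coding genes fell on both sides of the noncoding RNA. In TPM, 4 of 8 were above Kcnq1ot1 in both libraries (Cd81, Phlda2, Tssc4 and Cdkn1c) and 4 below it (Ascl2, Tspan32, Slc22a18 and Kcnq1). Kcnq1ot1 minus the median of the coding genes was -1.07 and -0.64 on the log2(TPM + 1) scale, a mean difference of -0.85 ± 0.300 (SD, n = 2). Against single genes the mean log2(TPM + 1) difference ran from -5.61 ± 1.15 for Cd81 to 1.39 ± 0.456 for Kcnq1. No test was made, since an exact paired test on 2 libraries cannot go below p = 0.5. Set against the 5 coding genes at 1 TPM or more, Kcnq1ot1 was lower by more, at -2.32 on the same scale.

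Ordered by mean TPM, the genes were Cd81, Phlda2, Tssc4, Cdkn1c, Kcnq1ot1, Ascl2, Tspan32, Slc22a18 and Kcnq1. The values of neighbours in this order overlapped between libraries for 2 pairs, Kcnq1ot1 with Ascl2 and Tspan32 with Slc22a18, whose order changed between the libraries. For the other neighbours the lower library of the higher gene was above both libraries of the next one.

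**Figure D3:**
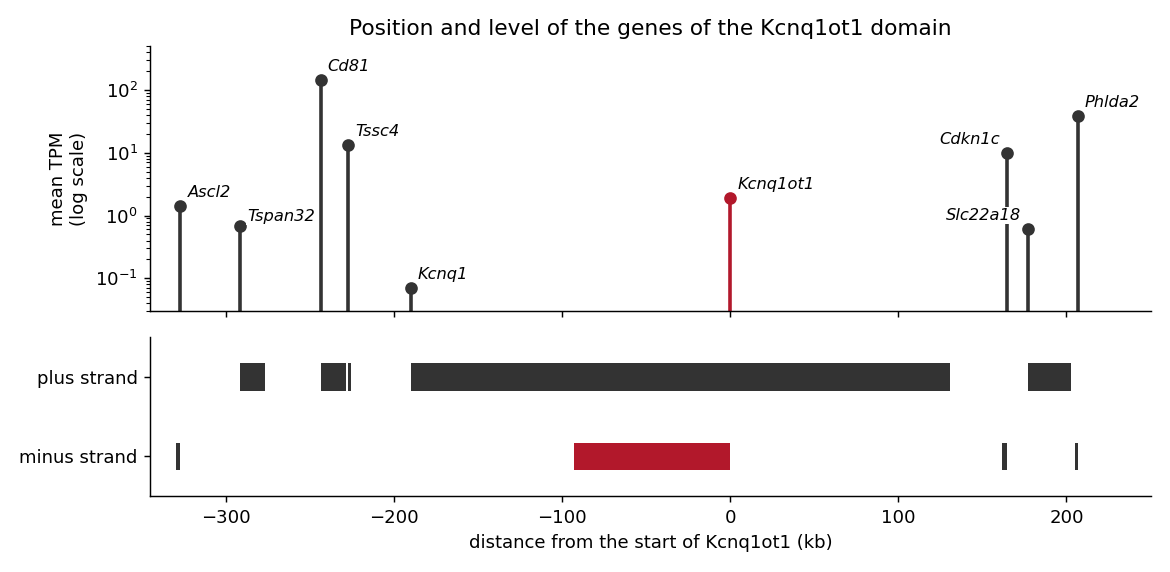
Above, mean TPM over the 2 libraries on a log scale at the start of each gene; below, the span of each gene by strand; the horizontal axis is the distance in kb from the start of Kcnq1ot1 (red), from GENCODE M21. High and low genes lie on both sides, with Cd81 at -243.8 kb and Phlda2 at 206.6 kb from that start.

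High and low levels lay side by side, without strict alternation, along the 536 kb from Ascl2 to Phlda2. Cd81 (144.89 TPM on average) lies between Tspan32 (0.67 TPM) and Tssc4 (13.03 TPM), and Slc22a18 (0.61 TPM) between Cdkn1c (9.89 TPM) and Phlda2 (38.97 TPM). Besides the members, 16 annotated genes overlap this interval, of which 15 are in the tables. Of these only R74862, a noncoding transcript on the strand opposite to Cd81, had 50 or more expected counts in a library (142 and 90, or 0.99 and 0.69 TPM). Tspan32os, antisense to Tspan32, had 25 and 15. The 4 small models inside Kcnq1ot1 had at most 4 counts. Trpm5, which overlaps Tssc4 on the other strand, stood at 0.19 and 0.24 TPM.

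Among the inner genes, Kcnq1, a voltage-gated potassium channel subunit of heart and epithelia, was nearly silent. It had 19 and 5 expected counts (0.09 and 0.05 TPM). By TPM Kcnq1ot1 stood at 14.3 and 49.0 times the level of Kcnq1, a ratio that rests on those few reads. Use of strand in counting is not given, so reads from Kcnq1 introns under the Kcnq1ot1 model may be counted to Kcnq1ot1. By the authors' posterior mean of TPM Kcnq1ot1 stood at 1.29 and 2.44. That of Kcnq1 was higher than its TPM, at 1.14 and 1.26. Of that estimate 42.4% and 46.3% belonged to Kcnq1-205 and 28.1% and 29.2% to Kcnq1-204, which have effective lengths of 26.4 and 39.9 bases in replicate 1 and no expected counts in either library. The reads of Kcnq1 were all given to Kcnq1-201 in replicate 1 and to Kcnq1-202 in replicate 2, too few to rank its transcripts. Among related channel subunits, Kcnq3 stood at 0.49 and 0.49 TPM and Kcne1l at 0.12 and 0.15 TPM, and Kcne4 had no counts.

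Cdkn1c, which encodes the cyclin-dependent kinase inhibitor p57, was at 10.28 and 9.5 TPM (9.89 ± 0.552, SD, n = 2), with 1395 and 1226 expected counts. In TPM the libraries lay close together, while with TMM-scaled counts the log2 difference, replicate 2 minus replicate 1, was -0.38. Cdkn1c-201 took 72.6% and 75.5% of its output and Cdkn1c-202 27.4% and 24.6%. Of 6 other inhibitors of the cell cycle kinases, 5 passed 1 TPM in both libraries. These were led by Cdkn2a (5.16 and 12.3 TPM), Cdkn2b (2.55 and 7.9 TPM) and Cdkn1a (2.96 and 7.17 TPM), each 2-fold higher in replicate 2 by log2(TPM + 1); with TMM-scaled counts this held for Cdkn2b alone. Cdkn2c was lowest at 0.14 and 0.28 TPM. Cdkn1c thus stood above each of them in replicate 1 and below Cdkn2a in replicate 2.

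Phlda2, a pleckstrin-homology protein that restrains placental growth in mouse, was the second gene of the cluster at 52.17 and 25.77 TPM (38.97 ± 18.7, SD, n = 2). Its expected counts were 2435 and 1140. Replicate 1 was the higher library, 2.02-fold in TPM. Its paralogs went the other way, with Phlda3 at 9.82 and 16.35 TPM and Phlda1 at 0.74 and 2.27 TPM, neither of them 2-fold apart on log2(TPM + 1). Slc22a18, a transporter-like membrane protein, was at 0.88 and 0.34 TPM (92 and 35 expected counts). Slc22a18-201 took 96.0% and 65.8% of that output and Slc22a18-202 0% and 34.2%, on few reads.

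Among the outer genes, Cd81 led the whole cluster. It encodes a tetraspanin, a membrane protein with 4 spans that organises partner proteins at the cell surface. Cd81 stood at 195.27 and 94.51 TPM (144.89 ± 71.2, SD, n = 2), above 99.3% and 98.4% of protein-coding genes, with 17112 and 9239 expected counts. Of 12 other tetraspanin genes 10 passed 1 TPM in both libraries, led by Cd9 (71.94 and 52.66 TPM), Cd63 (36.34 and 63.23 TPM) and Cd151 (41.85 and 47.7 TPM). Cd53 was lowest at 0.01 and 0.09 TPM, and none was 2-fold apart on log2(TPM + 1), while with TMM-scaled counts Tspan14 (11.4 and 5.79 TPM) fell by 1.13. Tspan32, a tetraspanin of blood cells, was at 0.41 and 0.93 TPM (41 and 85 expected counts). Tspan32-201 (42.6% and 24.8%) and Tspan32-209 (22.0% and 5.65%) had the highest mean shares of its 10 transcripts, although in replicate 2 Tspan32-209 stood below 4 others besides Tspan32-201.

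The transcripts of Cd81 shifted between the libraries. Cd81-201, the 8-exon coding transcript, took 72.4% and 93.0% of its output, or 141.36 and 87.85 TPM. Cd81-204, a shorter coding model of 586 bases that starts 5.84 kb downstream, took 23.5% and 2.46%, or 45.91 and 2.33 TPM, on 1533 and 73.5 expected counts. It shares 511 of its 586 bases with Cd81-201 and has 75 of its own, so reads on the shared part were split by the authors' model. Without Cd81-204 the gene stood at 149.36 and 92.19 TPM, 1.62-fold apart. The retained-intron models Cd81-203 and Cd81-202 took 2.85% and 2.61%, and 1.25% and 1.98%.

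Tssc4, whose product takes part in spliceosome assembly in human cells, was at 13.57 and 12.49 TPM (13.03 ± 0.764, SD, n = 2), with 1209 and 1062 expected counts. As with Cdkn1c, the libraries were close in TPM but further apart with TMM-scaled counts, at a log2 difference of -0.39. Tssc4-206 led with 43.0% and 37.3%, followed by Tssc4-201 with 25.0% and 31.0%. All 1364 exonic bases of Tssc4-206 lie within Tssc4-201. Ascl2, a basic helix-loop-helix factor needed for the spongiotrophoblast of the placenta, was at 1.04 and 1.76 TPM (1.40 ± 0.509, SD, n = 2), with 117 and 189 expected counts. Its 2 models, revised since, differ in length by few bases (1605 and 1612 in the tables). All of its output was given to Ascl2-202 in replicate 1, and 95.6% to Ascl2-201 in replicate 2. The deposited posterior shares were 55.6% and 30.7% for Ascl2-202.

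**Figure D4:**
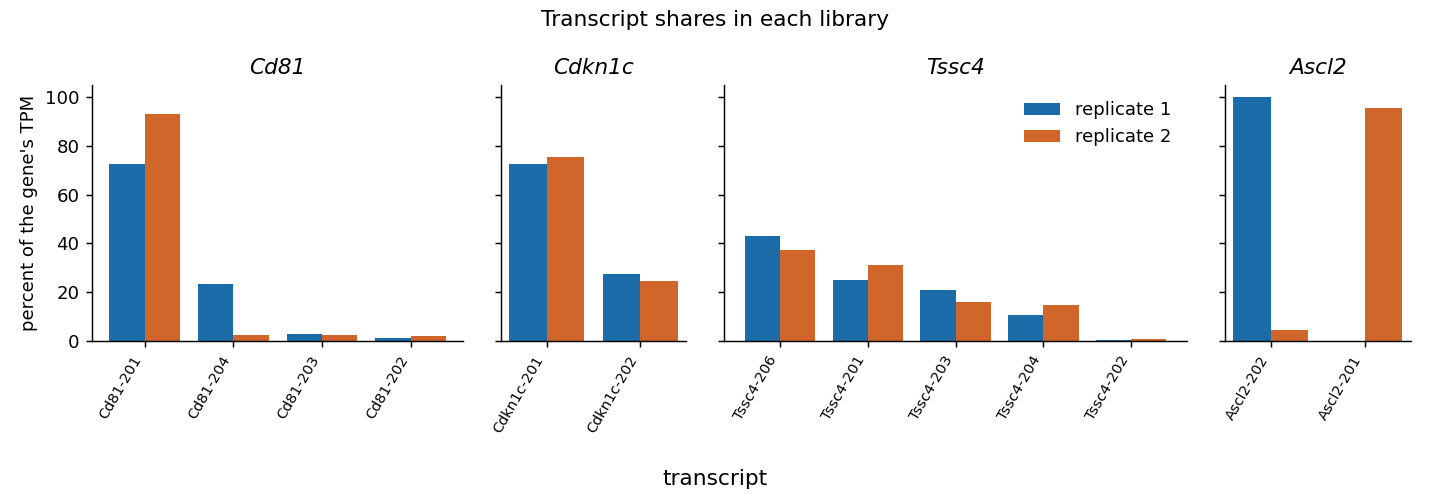
Percent of each gene's TPM given to each transcript, with 1 bar per library, for Cd81, Cdkn1c, Tssc4 and Ascl2 (transcripts with a mean of 0.5% or more). Cd81-204 falls from 23.5% to 2.46%, the order of the Cdkn1c and Tssc4 transcripts is the same in both libraries, and the Ascl2 models exchange places.

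For 6 members with several transcripts and at least 10 expected counts in both libraries, the leading transcript was the same in 5, all but Ascl2. Across all 10687 such genes it was the same in 81.3%, near the members' share. All 9 members had whole expected counts in both libraries (within 0.005), so no fractional assignment of reads between a member and another gene was seen. The same held for 85.1% of the 14038 genes with 50 or more expected counts. Whole counts cannot show reads given in full to another gene, such as reads of Kcnq1 introns counted to Kcnq1ot1.

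Between the libraries the members moved in both directions. On the log2(TPM + 1) scale, replicate 2 minus replicate 1, Cd81 fell by 1.04, Phlda2 by 0.99 and Slc22a18 by 0.49. Kcnq1ot1 was higher in replicate 2 by 0.59, Tspan32 by 0.45 and Ascl2 by 0.44. Cdkn1c, Tssc4 and Kcnq1 differed by -0.10, -0.11 and -0.05. The median protein-coding gene with a mean of 1 TPM or more differed by 0.23, so relative to them Kcnq1ot1 stood less far up, and Cd81 and Phlda2 further down. Of 6 members with a mean of 1 TPM or more, Cd81 alone was past 2-fold, in the lower direction; Phlda2 lay just short of it and passed it on 6 of the 7 other scales tried. Without Cd81-204 the difference of Cd81 was -0.69, short of 2-fold. Across 11436 such genes 0.866% were 2-fold lower and 3.24% were 2-fold higher. With 1 library on each side these are sizes and not tests. The intervals that the authors deposited were apart between the libraries for 4 of those 6 members, near the 62.8% of all such genes.

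**Figure D5:**
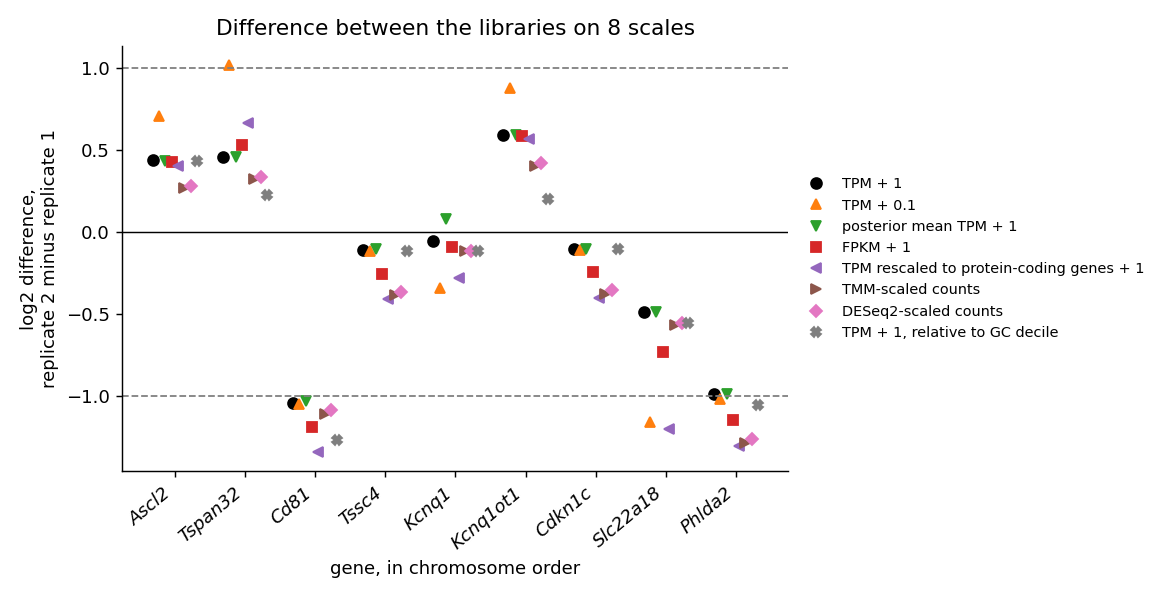
Difference between the libraries, replicate 2 minus replicate 1, in log2 units for each gene in chromosome order, on 8 scales of level or normalization; dashed lines mark a 2-fold difference. Cd81 is past the lower line on all 8 scales, Phlda2 on 6, and Kcnq1ot1 lies above 0 on all 8, from 0.20 to 0.88.

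Kcnq1ot1 remained higher in replicate 2 on the 8 scales tried, from 0.20 relative to protein-coding genes of like GC content to 0.88 with a pseudocount of 0.1. Its model has a GC content of 40.3%, in the lowest decile of protein-coding genes, where the median gene was itself higher by 0.39. That of Cd81 is 52.3%, in a decile with a median of 0.23, and that of Phlda2 56.5%, with a median of 0.06. Against those medians Cd81 differed by -1.27 and Phlda2 by -1.05. Of 104 other genes with models of 10 kb or more and 50 or more counts in a library, 69 (66.3%) were higher in replicate 2, with a median of 0.12 and a range of -1.10 to 1.91, against 69.8% and a median of 0.19 for all genes with 50 or more counts. The part of GC content and length in these differences was not tested further.

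Marker lists of other cell types differed between the libraries to unequal degrees. Calls of 2-fold in these lists are on log2(TPM + 1), which understates low genes. The background is high, since 66.5% of the 17883 protein-coding genes with any TPM were higher in replicate 2, with a median log2(TPM + 1) difference of 0.08. Of 12 fibroblast genes 10 were higher there and 6 by 2-fold, with a median difference of 0.90 and a summed level going from 50.8 to 170 TPM. Acta2 (33.04 and 100.23 TPM), Col1a1 (7.21 and 28.84 TPM) and Col1a2 (3.58 and 12.06 TPM) were highest and Lum was at 0. The other 3 past 2-fold were Col3a1 (1.21 and 10.47 TPM), Col5a2 (0.61 and 9.37 TPM) and Pdgfra (0.38 and 1.99 TPM). All 8 primitive endoderm genes were higher, with a median difference of 0.68 and a summed 1.67 and 8.44 TPM, none at 1 TPM in both libraries. Dab2 (0.43 and 2.77 TPM) led these, with Pdgfra and Sox17 (0.35 and 1.47 TPM) next and Ttr lowest at 0 and 0.01 TPM. Dab2 and Pdgfra were past 2-fold on log2(TPM + 1). In TPM without the added 1, others such as Sox17 were past it too.

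Of 12 trophoblast genes, the cell type in which Ascl2 and Phlda2 act, 11 were higher in replicate 2. On log2(TPM + 1) none was 2-fold higher, with a median difference of 0.37 and a summed 6.84 and 13.8 TPM. In TPM without the added 1, some of the 12 were, among them Krt7 and Cdx2. By ratio of TPM, Hand1 (0.28 and 1.5 TPM), Eomes (0.21 and 0.75 TPM) and Gata3 (0.07 and 0.53 TPM) were further apart than both. Tfap2c (3.56 and 4.57 TPM), Krt7 (2.05 and 4.1 TPM) and Cdx2 (0.54 and 1.25 TPM) were highest. The hormone genes Prl3d1 and Prl2c2 had no counts in replicate 1, against 0.2 TPM (Prl3d1) and 0.37 TPM (Prl2c2) in the other library, and Psg17 was at 0 in both. Blood genes summed to 7.39 and 12.02 TPM over 10 genes, of which 7 were higher, near the background share, and 1 by 2-fold, Ighm (0.26 and 5.27 TPM). The median difference of the blood list was 0.03, below that of protein-coding genes. Cd68 (6.14 and 5.3 TPM) led them with Cd3e (0.31 and 0.54 TPM) after Ighm, and Hbb-bs was at 0. The part of these cell types in the differences of the cluster was not tested, and in bulk RNA fewer cells and less RNA per cell cannot be told apart.

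Genes for proteins known to act on such domains were expressed. All 20 genes listed passed 1 TPM in both libraries, against 46.3% of protein-coding genes, and none was 2-fold apart on log2(TPM + 1). Trim28, the corepressor that ZFP57 recruits, led at 489.62 and 579.01 TPM, followed by Hnrnpk (111.34 and 198.31 TPM), an RNA-binding protein that links noncoding RNAs to Polycomb complexes, and Zfp57 (84.87 and 84.97 TPM). Ring1, a Polycomb ubiquitin ligase, was lowest at 1.71 and 1.31 TPM. The list had a median log2(TPM + 1) difference of 0.29, or 0.01 with TMM-scaled counts.

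Of 14 other genes listed from this stretch of the chromosome, all but Trpm5 outside the interval from Ascl2 to Phlda2, 8 passed 1 TPM in both libraries. H19, the noncoding RNA of the adjacent imprinted domain, was highest on average (2.96 and 136.7 TPM) and the one gene past 2-fold on log2(TPM + 1). It was followed by Cars (33.42 and 24.31 TPM) and Nap1l4 (15.74 and 23.91 TPM), which adjoin Phlda2. Ins2 and Mrgprg had no counts. The median difference of these genes was 0.04 on log2(TPM + 1), with Ins2 and Mrgprg included at 0. That of protein-coding genes was 0.08 for those with any TPM and 0.23 for those with a mean of 1 TPM or more. Kcnq1ot1 was second lowest when set among 6 other imprinted noncoding RNAs by mean TPM, above Airn (0.09 and 0.69 TPM). Rian (191.78 and 238.19 TPM), H19 and Meg3 (49.79 and 52.92 TPM) led these, and 5 of the 6 passed 1 TPM in both libraries. On log2(TPM + 1) H19 alone was 2-fold apart, although Airn differed by more than 2-fold in TPM without the added 1. In replicate 2 Airn reached 0.69 TPM on 52 expected counts, and Kcnq1ot1 2.45 TPM on 15295. The quantified Airn model is thus far shorter, and whether it covers the whole Airn RNA was not examined. TPM is corrected for length, and by expected counts the order differed. Kcnq1ot1 (8465 and 15295 counts) was below Rian (15156 and 18978) alone in replicate 1. In replicate 2 it was below Rian and H19 (479 and 19702).

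Airn silences its own neighbours in cis in mouse, in a domain laid out much like this one. Of the coding genes there, Igf2r, the receptor that clears insulin-like growth factor II, stood at 32.2 and 21.23 TPM, Slc22a3 at 0 and 0.05 TPM, and Slc22a2 had no counts. None of these was 2-fold apart between the libraries. The difference between the domains was not tested.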

How the data were processed

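Total RNA-seq libraries of ES-E14 were used as 1 group of 2, numbered per the labels. Per the deposited text files, reads were quantified per library from transcriptome alignments on mm10 with annotation M4; aligner, quantifier and use of strand in counting are not given by the labels or files used here, although separate plus and minus strand tracks are listed. The deposited tables give expected counts, TPM over all rows, FPKM, posterior mean TPM with interval bounds of unstated level (signal values of the authors), and the authors' percent of gene output by transcript. The 26248 rows named by a number (1 and 15 counts) and 97 spike-in rows were left out. Gene tables held 43163300 and 45573512 expected counts, of which ribosomal RNA models took 26.4% and 16.4%.

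Symbols came from GENCODE M21 (42462 of 43346 genes matched). Its models of Kcnq1ot1 (93092 bases), Cdkn1c and Ascl2 differ in length from those quantified. Members and lists were chosen with earlier results of these data known. Other genes were named by rule: interval genes with 50 or more expected counts in a library, and of each list the 3 highest by mean TPM, the lowest and those 2-fold apart; of transcripts, the 2 highest of each member. Exceptions, named after their values were seen, are Tspan32os, Trpm5, the small models inside Kcnq1ot1, the hormone genes Prl3d1 and Prl2c2, Tspan14 and further transcripts of Cd81 and Kcnq1. Hand1, Eomes and Gata3 are exceptions of the same kind. With 2 libraries, likeness of pattern to other genes was not computed. Peg13 was not analysed here. Some list members that the rule names are not reported here.

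Differences are log2(TPM + 1), which understates low genes; 2-fold calls for members needed 50 or more expected counts in a library (8 of 9). Counts were rounded for edgeR 4.0.16 (TMM) and DESeq2 1.42.0 size factors in R 4.3.3, used for scaling alone, since 1 group allows no test. Other steps used Python 3.11.15 with pandas 2.3.3, numpy 2.4.6, matplotlib 3.10.9 and scipy 1.17.1. Alternatives were other TPM limits (0.5 and 5), abundance estimates, scalings, a pseudocount of 0.1, filters, each library alone and, added after seeing the data, GC deciles and Cd81 without its short model.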

Additional observations from a re-analysis of the deposited data

How the results depend on the processing

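The number of members at 1 TPM or more in both libraries was 6, and 4 to 8 under the alternatives: 4 at 5 TPM, 5 by the lower interval bound, 7 by posterior mean TPM and 8 when rescaled to protein-coding genes. Shares of all genes under these alternatives are not given here. Leaving out either replicate gave 6. Kcnq1ot1 minus the median of the coding members was negative under all 8 alternatives. It was -1.07 to -0.64 without 1 of the replicates, moved to -1.30 with a mean in place of the median, and to -2.32 over coding members at 1 TPM or more, since the low genes are then left out.

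The number of members 2-fold apart, 1 as reported, depended on the scale. It was 4 with a pseudocount of 0.1 (Cd81, Phlda2, Slc22a18 and Tspan32), 3 with TPM rescaled to protein-coding genes (Cd81, Phlda2 and Slc22a18), and 2 (Cd81 and Phlda2) with FPKM, TMM, DESeq2 size factors or relative to GC deciles. Without the short model Cd81-204, an alternative chosen after seeing the data, as were the GC deciles, it was 0. The shares of all genes past 2-fold on these other scales are not given here, so these counts have no background beside them. No called difference changed direction. The leading transcript was the same in 3 of 4 members with 50 or more counts in both libraries, 5 of 7 with no limit on counts, and 4 of 6 by posterior shares; fewer members are tested under the stricter limit. Of the alternatives for single genes or transcripts, 125 stayed within 1 SD or the counting interval and 51 moved further, and none reversed a value past 2-fold. Kcnq1, with 19 and 5 counts, changed the sign of its small difference with posterior mean TPM (0.08 against -0.05). Depth limits Kcnq1, Slc22a18, Tspan32 and Ascl2. No paired analysis was possible because the series has 1 group.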
